A study of Mus musculus with 6 samples.

Results

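The transcripts described are 9 genes used as markers of CA1 pyramidal cells, the principal neurons of hippocampal field CA1. They are Wfs1, Fibcd1, Pou3f1, Mpped1, Man1a, Lefty1, Spink8, Tle4 and Ndst4. Every probe set annotated to exactly 1 of these symbols was taken, which gave 15 of the 45037 probe sets tested and 9 of the 18193 genes, and all 15 entered the tests because no filter on level was used. Expression was measured on Affymetrix Mouse Genome 430 2.0 arrays in whole hippocampus of adult male mice, 3 wild type and 3 of the line L26, with 1 array per sample. L26 mice were homozygous for a transgene that encodes daDREAM, a dominant active form of DREAM. The wild type mice were littermates, and all animals had the C57B6xCBA background. L26 is 1 transgenic line, so the place where its transgene integrated cannot be told apart from the transgene itself, and the promoter that drives it is not given in the sources used here. No stimulus is named in the labels, and the series title calls the expression basal. Per the design text, the 3 arrays of a group come from separate biological samples.

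CA1 pyramidal cells receive input from CA3 through the Schaffer collaterals and carry the main output of the hippocampus to the subiculum and the cortex. They share a general programme with other forebrain pyramidal neurons, and a smaller set of genes separates them from CA3 cells and dentate granule cells. DREAM, the product of Kcnip3, is a calcium-binding repressor that binds DNA at sites with the core GTCA and lets go when calcium rises. The daDREAM mutant does not respond to calcium. None of the 9 markers is exclusive to CA1 in the brain, and Wfs1, Pou3f1, Mpped1, Man1a and Tle4 are also transcribed in parts of the cortex. In RNA of whole hippocampus, a change in the number of CA1 cells and a change in RNA per cell cannot be told apart.

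RefSeq promoter sequences (build GRCm38.p6) were matched for 5 of the 9 genes, and none for Lefty1, Spink8, Pou3f1 or Ndst4. Those of Fibcd1, Man1a and Wfs1 are printed because the first 2 were among the markers with higher values in L26 and Wfs1 was not. Because they were picked by these values, a contrast in their match counts is not a result. Each sequence is the 250 bases before the annotated start, 5′ to 3′ on the gene's strand, and capitals mark GTCA or its reverse complement TGAC. The palindromic cyclic AMP response element also contains these letters.
Fibcd1 (chr2:31846006-31846255, minus strand): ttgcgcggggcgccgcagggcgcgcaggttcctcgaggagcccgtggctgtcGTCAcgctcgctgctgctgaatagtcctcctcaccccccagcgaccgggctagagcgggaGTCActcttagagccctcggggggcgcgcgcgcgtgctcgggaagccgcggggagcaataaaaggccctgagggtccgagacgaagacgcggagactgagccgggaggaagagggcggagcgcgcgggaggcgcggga
Man1a (chr10:54075738-54075987, minus strand): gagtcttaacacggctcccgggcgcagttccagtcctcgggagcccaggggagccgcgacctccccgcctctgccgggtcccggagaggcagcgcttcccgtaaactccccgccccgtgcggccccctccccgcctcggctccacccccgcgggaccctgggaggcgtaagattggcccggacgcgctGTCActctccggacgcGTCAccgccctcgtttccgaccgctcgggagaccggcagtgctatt
Wfs1 (chr5:36988983-36989232, minus strand): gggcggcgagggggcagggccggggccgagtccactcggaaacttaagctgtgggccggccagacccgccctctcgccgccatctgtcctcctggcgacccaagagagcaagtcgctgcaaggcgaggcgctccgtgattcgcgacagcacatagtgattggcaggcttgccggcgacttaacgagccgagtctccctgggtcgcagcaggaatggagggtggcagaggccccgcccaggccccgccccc
The Fibcd1 window held 2 matches, which begin 198 and 138 bases before the start. The Man1a window also held 2, beginning 62 and 46 bases before it, and the Wfs1 window and both Mpped1 windows held 0. Of the 2 Tle4 windows, 1 held 2 matches and the other 0. Among all 32851 promoter windows of this length, 80.2% held at least 1 match and 50.1% at least 2, so these short letters are common and their presence describes the sequence without naming a site.

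Of the 15 probe sets, Fibcd1 and Lefty1 rose in L26, by 0.45 and 0.73 on the log2 scale, and 1 of 3 Tle4 probe sets fell by 0.49. The other 12 did not pass an adjusted p of 0.05 (limma, Benjamini-Hochberg over all 45037 probe sets). Wfs1 and Mpped1 differed by no more than 0.1, and neither passed. Over all probe sets 3.92% passed, 1.98% higher and 1.94% lower in L26. The 9 markers were chosen with earlier results of these data known, so such shares describe them and are not a test. The 3 L26 values lay wholly above the 3 wild type values for 4 of the 15 probe sets and wholly below for 2, while over all probe sets these shares were 12.5% and 9.32%. The median difference of the 15 was 0.11, and that of all probe sets 0.01. With 1 probe set per gene, the one with the highest mean over the 6 arrays, 3 of 9 markers rose (Fibcd1, Lefty1 and Man1a) and 0 fell, against 2.63% and 2.57% of all genes (5.19% in either direction). Man1a passed narrowly there, and its call was lost when any 1 of the 6 arrays was left out. In that fit 2 of the remaining 6 markers had a higher mean in L26 and 4 a lower one, none past the threshold.

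**Figure D1:**
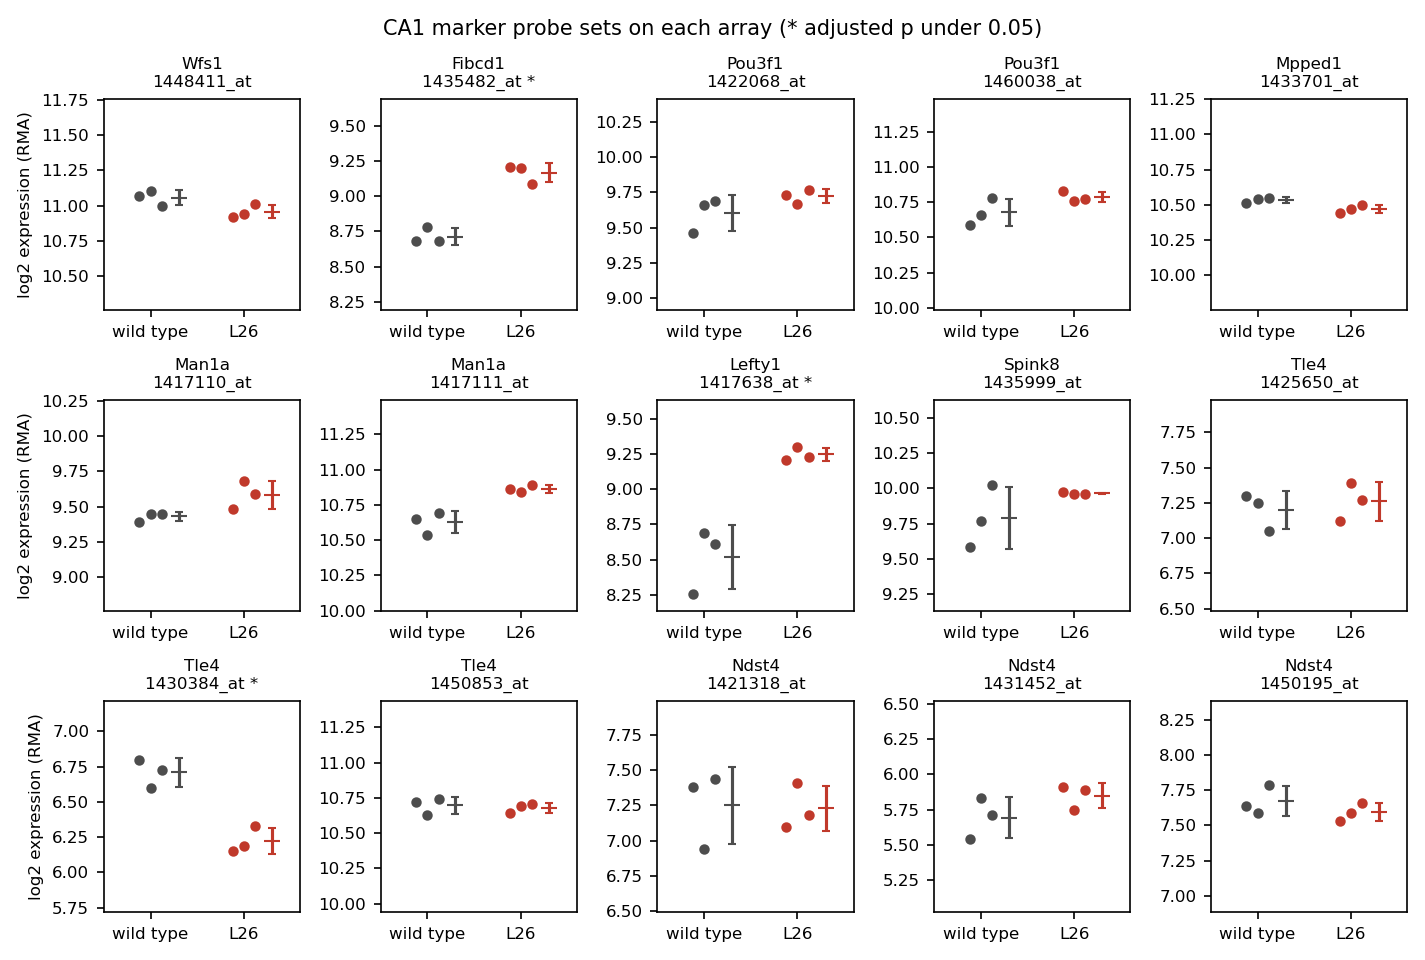
Log2 expression of each of the 15 CA1 marker probe sets on each array, with 3 wild type and 3 L26 points and the group mean and SD beside them; every panel spans 1.5 log2 units. The groups are clearly apart for Fibcd1, Lefty1 and Tle4 1430384_at, whereas the Wfs1 arrays lie between 10.92 and 11.10 in both groups.

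The levels of these markers cannot check the labelled tissue, because no other tissue was measured and several markers are also transcribed in cortex. Averaged over the 6 arrays, 8 of the 15 probe sets lay above 9.06, the upper quartile of all probe sets, and 4 lay below the median of 7.30. The 4 dimmer ones were 2 of the Tle4 and 2 of the Ndst4 probe sets, where differences can come out smaller than they are. Array medians ran from 7.27 to 7.32, and correlations across probe sets were 0.9971 to 0.9979 within and 0.9944 to 0.9958 between groups. Kcnip3, the gene of DREAM, had differences of -0.17 (SE 0.07) and -0.32 (SE 0.07) on its 2 probe sets, with adjusted p = 0.208 and 0.0393 (limma). Whether these probe sets detect the transgene is not known here, so they do not check the labels.

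Among the markers that act outside the cell or at its surface, Lefty1 showed the largest difference of the 15. Lefty1 encodes a secreted protein of the TGF-beta family that blocks Nodal signalling and is best known from left-right patterning of the embryo. Its log2 values were 8.26, 8.69 and 8.61 in wild type and 9.21, 9.30 and 9.23 in L26. The lowest L26 array exceeded the highest wild type array by more than the whole range of the L26 values, and wild type replicate 1 was the lowest of all. The groups averaged 8.52 ± 0.23 and 9.25 ± 0.05 (SD, n = 3), a difference of 0.73 (SE 0.10, 95% confidence interval 0.50 to 0.96) or 1.65-fold, with adjusted p = 0.00491 (limma). Without wild type replicate 1 the difference was 0.60, and it passed then and with each other array left out.

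Fibcd1 encodes a transmembrane receptor with a fibrinogen-like domain that binds acetylated sugars such as those of chitin. Its values were 8.68, 8.78 and 8.68 in wild type and 9.21, 9.20 and 9.09 in L26, so the groups were far apart and each was tight. The means were 8.71 ± 0.06 and 9.17 ± 0.07 (SD, n = 3). The difference was 0.45 (SE 0.06, interval 0.32 to 0.59), or 1.37-fold (limma adjusted p = 0.00387). It ranged from 0.42 to 0.49 over the alternatives tried and passed with each array left out. In an ordinary equal-variance test without limma's moderation, Fibcd1, Lefty1 and Tle4 1430384_at had adjusted p = 0.0834, 0.159 and 0.138, and 142 of all probe sets passed in place of 1764.

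Spink8, of the Kazal family of serine protease inhibitors, had wild type values of 9.58, 9.77 and 10.02 and L26 values of 9.97, 9.96 and 9.96. The L26 arrays were nearly identical, and the wild type arrays spread over a range that reached above them. The difference of 0.17 (SE 0.10, interval -0.05 to 0.39) did not pass (limma adjusted p = 0.399). It was 0.07 without wild type replicate 1 and 0.29 without wild type replicate 3, so single wild type arrays set its size.

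The markers of the endoplasmic reticulum and Golgi were Wfs1, Man1a and Ndst4. Wfs1 encodes wolframin, a membrane protein of the endoplasmic reticulum whose loss causes Wolfram syndrome, and is a classical label of dorsal CA1. It gave 11.07, 11.10 and 11.00 in wild type and 10.92, 10.94 and 11.01 in L26. The groups overlapped through L26 replicate 3 and wild type replicate 3. The difference of -0.10 (SE 0.06, interval -0.23 to 0.03, limma adjusted p = 0.406) did not pass, and its interval does not reach a rise of the size seen for Fibcd1 or Lefty1. On each array, Fibcd1 minus Wfs1 was -2.39, -2.32 and -2.32 in wild type and -1.71, -1.74 and -1.92 in L26. The group means of this within-array difference were 0.55 apart. The pair was chosen after the values were seen, so this describes the arrays and is not a test.

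Man1a encodes a Golgi mannosidase that trims N-linked glycans. Its brighter probe set, 1417111_at, gave 10.65, 10.54 and 10.69 in wild type and 10.86, 10.84 and 10.89 in L26. The other, 1417110_at, gave 9.39, 9.45 and 9.45 against 9.48, 9.68 and 9.59. All L26 values lay above all wild type values on both probe sets, by a narrow margin on 1417110_at. The differences were 0.24 (SE 0.06, limma adjusted p = 0.0645) and 0.15 (SE 0.06, adjusted p = 0.253), neither past the threshold over probe sets. The within-array difference between them averaged 1.20 in wild type and 1.28 in L26, and its groups overlapped. In the fit with 1 probe set per gene Man1a passed with adjusted p = 0.0485 (limma). That call was lost whichever of the 6 arrays was left out (adjusted p from 0.0616 to 0.152) and when both probe sets were averaged (0.20, SE 0.05, adjusted p = 0.0528).

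Ndst4, an enzyme that deacetylates and sulfates heparan sulfate chains in the Golgi, has 3 probe sets, all of modest signal. On the brightest, 1450195_at, wild type arrays gave 7.64, 7.59 and 7.79 and L26 arrays 7.53, 7.59 and 7.66. On 1421318_at the values were 7.38, 6.94 and 7.44 against 7.10, 7.41 and 7.18, and on 1431452_at 5.54, 5.83 and 5.71 against 5.91, 5.75 and 5.89. The groups overlapped on all 3. The differences were -0.08 (SE 0.07), -0.02 (SE 0.13) and 0.16 (SE 0.08), with limma adjusted p = 0.607, 0.952 and 0.361. For 1421318_at the sign turned when any of 4 single arrays was left out, and its interval ran from -0.32 to 0.27, so no direction can be given for Ndst4.

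**Figure D2:**
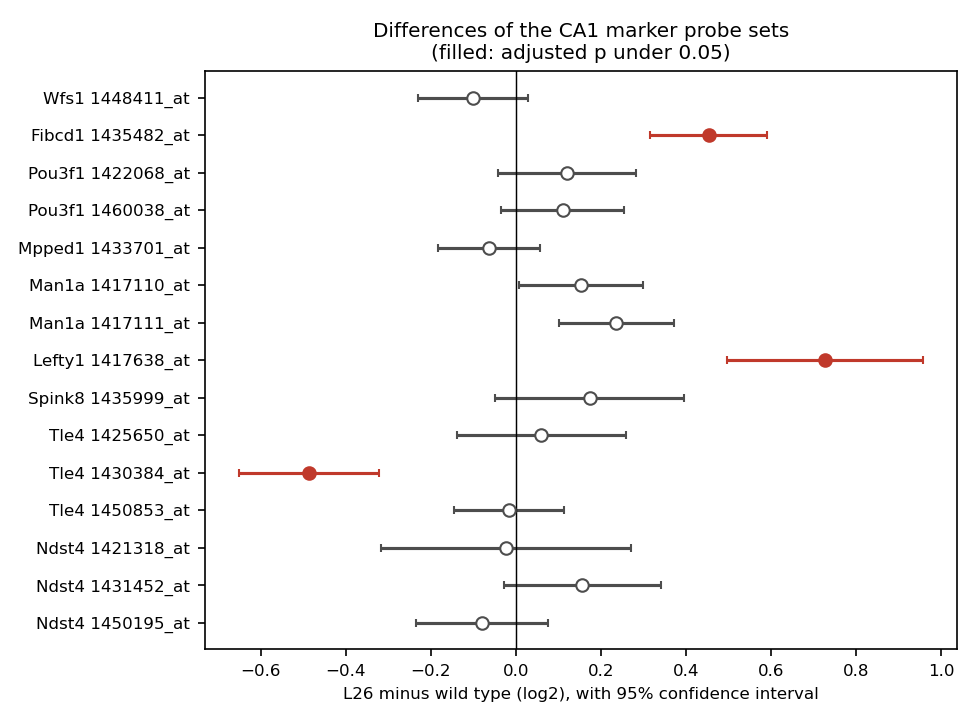
Difference between L26 and wild type (log2) for each CA1 marker probe set, with its 95% confidence interval from limma; filled points passed an adjusted p of 0.05. The intervals of Lefty1 (0.50 to 0.96) and Fibcd1 (0.32 to 0.59) lie to the right of 0, that of Tle4 1430384_at (-0.65 to -0.32) to the left.

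Of the transcriptional regulators, Pou3f1 has 2 probe sets and Tle4 has 3. Pou3f1 encodes a POU-domain transcription factor also called Oct6 or SCIP. On 1460038_at its values were 10.59, 10.66 and 10.78 in wild type and 10.83, 10.76 and 10.77 in L26, and on 1422068_at 9.46, 9.66 and 9.69 against 9.73, 9.67 and 9.77. Wild type replicate 1 was the lowest array on both, and the groups overlapped on both. The differences of 0.11 (SE 0.06, interval -0.03 to 0.25) and 0.12 (SE 0.07, interval -0.04 to 0.28) did not pass (limma adjusted p = 0.416 and 0.433). Without wild type replicate 1 they were 0.07 and 0.05.

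Tle4, a Groucho-family corepressor that is also a marker of deep cortical layers, gave probe sets that disagreed. The brightest, 1450853_at, gave 10.72, 10.63 and 10.74 in wild type and 10.64, 10.69 and 10.71 in L26. The dim probe set 1430384_at gave 6.80, 6.60 and 6.73 against 6.15, 6.19 and 6.33, with every L26 array below every wild type array. The third, 1425650_at, gave 7.30, 7.25 and 7.05 against 7.12, 7.39 and 7.27. Only on 1430384_at did the groups separate. It fell by 0.49 (SE 0.07, interval -0.65 to -0.32), which puts wild type 1.40-fold above L26 (limma adjusted p = 0.00711), and it passed with each array left out. The differences on 1450853_at and 1425650_at were -0.02 (SE 0.06, adjusted p = 0.919) and 0.06 (SE 0.09, adjusted p = 0.786). Both turned sign in some fits that left out an array. Which part of the Tle4 transcript each probe set detects was not examined here.

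Mpped1 encodes a metallophosphoesterase expressed in forebrain. Its values were 10.51, 10.54 and 10.55 in wild type and 10.44, 10.47 and 10.50 in L26. All 3 L26 arrays were below all 3 wild type arrays, but by only 0.01 at the nearest point. The difference of -0.06 (SE 0.05, interval -0.18 to 0.06) did not pass (limma adjusted p = 0.59).

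Averaged over the 9 genes, the CA1 markers lay at 9.74, 9.81 and 9.87 in the wild type arrays and at 9.96, 9.97 and 9.98 in the L26 arrays. The L26 mean was higher by 0.16, and Lefty1 and Fibcd1 carried most of it. Without Lefty1 it was higher by 0.09, and without Lefty1 and Fibcd1 by 0.04, when the wild type arrays (10.11 to 10.22) spanned the L26 arrays (10.17 to 10.21).

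The list of other genes enriched in CA1 or in part of it gave smaller values. This list and those below were chosen with earlier results of these data known, so their counts are descriptions and not tests. Of its 12 measured genes 0 passed (limma), and 10 had a higher mean in L26, with a median difference of 0.08 against 0.01 over all genes. Doc2b, a calcium sensor of vesicle release, had 0.28 (SE 0.08, adjusted p = 0.0697) and Grp, the gastrin-releasing peptide gene, 0.19 (SE 0.05, adjusted p = 0.0743). These were also the 2 genes of the list whose groups did not overlap, against 13% of all genes with L26 above. Without adjustment, 4 of the 12 had p under 0.05 (limma), 3 higher and 1 lower in L26, against 20.3% of all genes. Among 14 genes of pyramidal cells in general 0 passed and 12 had a higher mean in L26, against the same 9653 of 18193. In 10 of these 14 all L26 arrays lay above all wild type arrays, against the same 13% of all genes. The smallest p-values of the pyramidal list belonged to the transcription factor genes Zbtb20 (0.22, SE 0.06, limma adjusted p = 0.0565) and Neurod2 (0.21, SE 0.06, adjusted p = 0.0678). Its median difference was 0.13. Without adjustment 7 of the 14 had p under 0.05 (limma), against the same 20.3% of all genes.

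**Figure D3:**
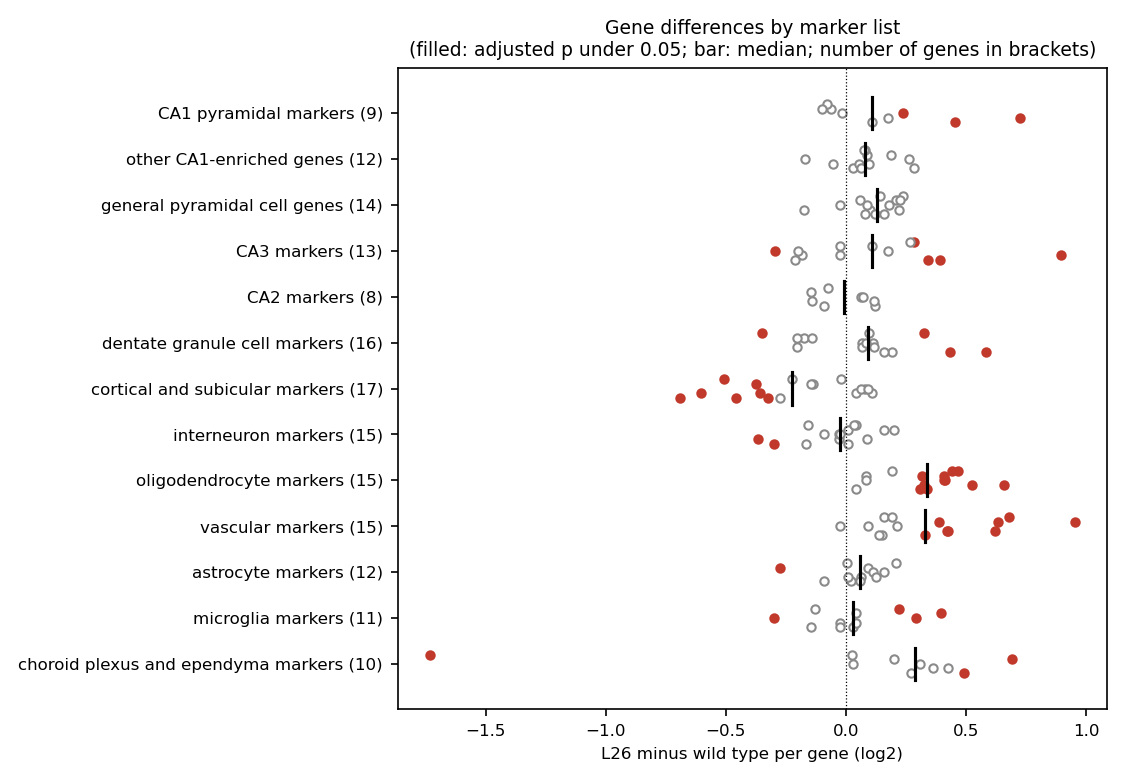
Difference between L26 and wild type (log2) for each gene of the CA1 markers and of 12 further marker lists, with 1 probe set per gene; filled points passed an adjusted p of 0.05 over all genes and black bars are list medians. The CA1 markers spread from -0.10 to 0.73 around a median of 0.11, between the cortical and subicular list (median -0.22) and the oligodendrocyte and vascular lists (0.34 and 0.33).

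The other hippocampal fields also gave mixed values. Over all genes 2.63% passed with higher and 2.57% with lower values in L26 (limma). Of 13 CA3 markers 4 rose, among them Iyd (0.90) and Bok (0.39), and 1 fell (Cpne4, -0.30, named after its value was seen). Of 16 dentate granule cell markers 3 rose, led by Lct (0.58), and Plk5 fell by 0.35. Of 8 CA2 markers 0 passed (limma), and 1 of the 8 had an unadjusted p under 0.05, against 20.3% of all genes. The medians of these lists were 0.11, 0.09 and -0.01, beside 0.11 for the 9 CA1 genes. Whether the CA1 list differs from them was not tested.

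Markers of other cells moved on the same arrays, and the counts below stand beside 2.63% of all genes higher and 2.57% lower. With the lists chosen when earlier results of these data were known, these counts are not a test. Of 17 cortical and subicular markers 7 fell and 0 rose, and their mean ran from 9.47 to 9.55 over wild type and from 9.29 to 9.30 over L26 arrays. The cortically expressed CA1 markers Wfs1, Mpped1 and Tle4 (on 1450853_at) had slightly lower means in L26 (-0.10, -0.06 and -0.02), none past the threshold. Pou3f1 and Man1a had higher ones (0.11 and 0.24), and of these only Man1a passed, narrowly. The sign for Tle4 turned in some fits that left out an array. Of 15 oligodendrocyte markers 11 rose and 0 fell (mean 10.88 to 10.97 in wild type, 11.14 to 11.37 in L26), and of 15 vascular markers 8 rose and 0 fell (8.87 to 8.89 against 9.18 to 9.28). Of 15 interneuron markers 0 rose and 2 fell, Reln by 0.37 and Pvalb by 0.30 (mean 10.13 to 10.14 against 10.08 to 10.12). The interneuron list was split, with 7 genes higher and 8 lower by mean and a median difference of -0.02. Past the threshold, astrocyte markers gave 0 higher and 1 lower of 12 (S100b) and microglia markers 3 and 1 of 11. Choroid plexus and ependyma markers gave 2 and 1 of 10. By mean alone, higher and lower genes numbered 10 and 2 for astrocytes, 6 and 5 for microglia, and 9 and 1 for choroid plexus and ependyma. Over all 18193 genes these numbers were 9653 and 8308. The choroid plexus and ependyma means overlapped, with 8.65 to 9.16 over wild type and 8.74 to 9.31 over L26 arrays. Their difference of 0.11 became -0.05 without wild type replicate 1 and -0.02 without L26 replicate 3. The 1 lower gene of that list was Kcne2, with a difference of -1.73. Each of these lists had a mean of 8.646 or more on every array, though single genes were dimmer, such as Kcne2 (5.43 in L26). The part of these lists in the differences of Fibcd1, Lefty1 and Tle4 was not tested.

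**Figure D4:**
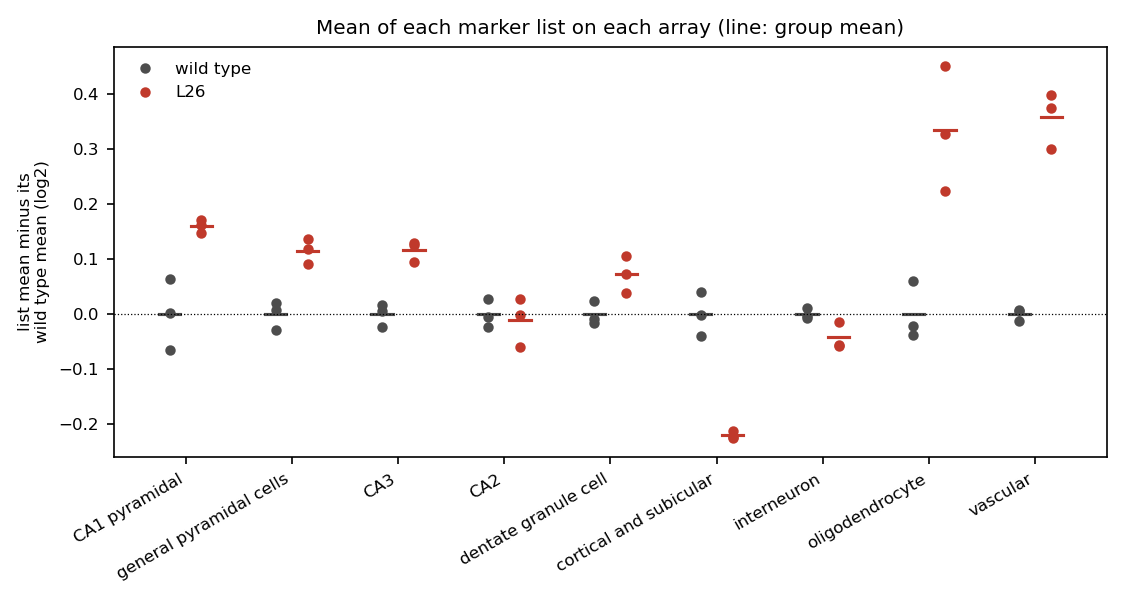
Mean log2 value of 9 marker lists on each array, each set to 0 at its wild type mean; points are arrays and lines group means. The CA1 list is 0.16 higher in L26, the oligodendrocyte and vascular lists are 0.33 and 0.36 higher and the cortical and subicular list is 0.22 lower.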

How the data were processed

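The deposited values are log2 expression, 1 for each probe set on each array. Per the submitters' processing notes the authors used RMA and the affy package, in versions not stated there. Values have 2 decimals and carry no detection calls. Of 45101 probe sets, 64 AFFX controls were left out. Per the platform annotation 34945 of the other 45037 had 1 symbol, 932 several and 9160 none; 0 probe sets with several symbols held a marker, and none of the 15 ends in _x_at or _s_at.

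L26 was compared with wild type with lmFit and eBayes of limma 3.58.1 under R 4.3.3 (two-sided, Benjamini-Hochberg over all probe sets or genes, threshold 0.05). Standard errors and 95% intervals come from that fit, and values after ± are SDs over 3 arrays. Array number limits the precision. Named genes were all probe sets of the 9 markers, Kcnip3 and, per other list, at most 4 genes that passed or else the 2 with the smallest p. The members and lists were chosen with earlier results of these data known, and the within-array differences were chosen after seeing the values. Promoters came from RefSeq (GRCm38.p6).

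The fit was tested on simulated data. Alternatives changed the scaling, filter, variance prior, threshold, probe sets or arrays used.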

Additional observations from a re-analysis of the deposited data

How the results depend on the processing

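Fibcd1 and Lefty1 kept their direction under all 15 alternatives and Tle4 1430384_at under the 14 that included it. Alternatives that changed only the block, variance prior, threshold, test or other probe sets could not change a direction. Leaving out or weighting arrays could not do so either for these 3 probe sets, because their groups did not overlap. Only the alternatives that changed the scaling could have turned their signs. A threshold of 0.1 could not lose a call. Each of these 3 probe sets lost its call only in the ordinary equal-variance test. In that test 0 of the 15 CA1 marker probe sets and 142 of all probe sets passed (unadjusted, 6824 had p under 0.05). Man1a 1417111_at passed under 4 alternatives: a threshold of 0.1, a second quantile normalization, a robust prior with an intensity trend, and a filter that left out the dimmest 40% of probe sets. That filter also removed Tle4 1430384_at and Ndst4 1431452_at. The count of all probe sets past the threshold was 1764, 3167 at a threshold of 0.1, and 810 to 1430 with 1 array left out. It fell by over 1.5 times without wild type replicate 2 (1064), L26 replicate 2 (968) or L26 replicate 3 (810), while the same 3 CA1 marker probe sets passed in each. With arrays centred on their medians 38.4% of calls were higher in L26, in place of 50.6%, and the same 3 marker probe sets passed.

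Signs turned for 3 probe sets near 0: Tle4 1425650_at (-0.015 without wild type replicate 3 and -0.005 without L26 replicate 2, up to 0.13 without L26 replicate 1), Tle4 1450853_at (0.005 without wild type replicate 3 and 0.0033 without L26 replicate 1, down to -0.05 without wild type replicate 2) and Ndst4 1421318_at (0.04 and 0.07 without wild type replicates 1 and 3, 0.0417 and 0.0017 without L26 replicates 1 and 3, down to -0.18 without wild type replicate 2). The difference of the CA1 list mean ranged from 0.127 to 0.192. Centring arrays on their medians lowered the difference of every list, that of the CA1 markers from 0.16 to 0.13. It took general pyramidal genes from 0.1155 to 0.0855, CA3 markers from 0.1169 to 0.0869 and astrocyte markers from 0.04 to 0.01. The small list differences therefore depend on scaling. Same-numbered arrays of the groups did not deviate together in every pair (r = -0.038, -0.07 and 0.154), so the numbers were not taken as pairs. With the replicate number as a block 1330 probe sets passed and the same 3 CA1 marker probe sets.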
